A study of Homo sapiens with 18 samples.

Results

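A set of 10 genes of glutathione synthesis, the NRF2 antioxidant response and ferroptosis control were followed through silencing of the kinase ERK5 in neuroblastoma cells: NFE2L2, KEAP1, GCLC, GCLM, GPX4, HMOX1, NQO1, TXNRD1, ACSL4 and AIFM2. They were taken by symbol from the annotation of the array's probes, 10 of 17687 genes with a probe, and each had 1 probe. SK-N-BE(2), a human neuroblastoma line with amplified MYCN, and CHLA-90, one without it, were transduced with pLKO lentivirus carrying shERK5-4 or shERK5-5, hairpins against ERK5, or the control hairpin shNSC. All 6 groups therefore carried virus and a hairpin, and each had 3 biological replicates, 18 arrays in all. Viral supernatant was made in HEK-293T cells, 250000 cells were seeded per well, and total RNA was taken 72 hours after transduction from the whole cell population. The labels name no selection of transduced cells. The series addresses the effect of ERK5 silencing on the transcriptome, and these genes were read for which of them moved with both hairpins, which with 1, and in which line.

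NRF2, the product of NFE2L2, is a transcription factor that KEAP1 holds in a ubiquitin ligase complex and delivers for degradation. When KEAP1 is oxidised or bound by electrophiles, NRF2 accumulates, pairs with small MAF proteins and binds antioxidant response elements at genes for glutathione synthesis, quinone reduction and thioredoxin recycling. Ferroptosis is an iron-dependent death by peroxidation of membrane lipids, which GPX4 opposes by reducing lipid hydroperoxides with glutathione, and neuroblastoma cells with high MYCN are known to depend strongly on cysteine and glutathione for protection from it.

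The letters TGACNNNGC, the core of the antioxidant response element, were searched on both strands in the 250 bases before each RefSeq transcription start (build GRCh38.p14). Of 35116 such windows, 10.9% held a match. The members had 14 windows from 9 genes, and 5 windows of 4 genes held one. KEAP1, GCLM and TXNRD1, whose signals differed between the hairpins in at least a single line, held a match, and so did AIFM2, which did not differ. NFE2L2, GCLC, GPX4, NQO1 and ACSL4 also differed between the hairpins in a line and held no match, and HMOX1 had no window. Sequence beyond those 250 bases was not searched, so a window without a match does not show that a gene lacks the element. The stretches with a match are shown here. Capitals mark the match, and each stretch is read on the strand that carries it.
KEAP1 chr19:10502807-10502835, minus strand: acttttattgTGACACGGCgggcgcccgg
KEAP1 chr19:10502784-10502812, plus strand: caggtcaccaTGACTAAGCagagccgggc
GCLM chr1:93909446-93909474, plus strand: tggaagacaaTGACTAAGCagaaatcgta
TXNRD1 chr12:104215670-104215698, plus strand: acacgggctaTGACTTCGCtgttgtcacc
TXNRD1 chr12:104286920-104286948, minus strand: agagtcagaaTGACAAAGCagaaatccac
AIFM2 chr10:70132829-70132857, plus strand: gggcggggcgTGACTCAGCactcgtgctg
The 2 KEAP1 matches lie 54 and 31 bases before the second of its starts and overlap in their flanks. The GCLM match lies 34 bases before its start, and the TXNRD1 matches lie 99 bases before its first start and 102 before its second. The AIFM2 match, 22 bases before the start, also holds TGACTCA, the element bound by AP-1, and a match of that kind was present in 0.456% of all windows. TXNRD1, which showed the largest change of the 10, has its 2 annotated starts far apart, and the whole window before each is given here, again with the match in capitals. In the second window the match is on the minus strand, so its reverse complement appears.
TXNRD1 first start, chr12:104215529-104215778: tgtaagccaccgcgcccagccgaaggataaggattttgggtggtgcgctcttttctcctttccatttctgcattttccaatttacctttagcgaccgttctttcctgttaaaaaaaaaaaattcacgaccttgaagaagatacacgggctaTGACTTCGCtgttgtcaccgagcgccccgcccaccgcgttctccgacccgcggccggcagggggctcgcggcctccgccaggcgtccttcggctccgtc
TXNRD1 second start, chr12:104286782-104287031: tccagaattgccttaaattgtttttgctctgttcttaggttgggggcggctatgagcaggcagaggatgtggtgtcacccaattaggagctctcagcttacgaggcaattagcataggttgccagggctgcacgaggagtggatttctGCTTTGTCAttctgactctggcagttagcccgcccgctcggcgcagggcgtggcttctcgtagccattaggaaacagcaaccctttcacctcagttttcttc
A match describes letters in these windows. No occupancy by NRF2 was measured.

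Signals are the deposited log2 values, and a difference of 1 is a doubling on that scale. MAPK7, which encodes ERK5, fell to 61.8% with shERK5-4 and 64.3% with shERK5-5 of its shNSC signal in SK-N-BE(2), and to 47.7% and 50.5% in CHLA-90 (adjusted p between 0.000329 and 0.0319 by limma, the linear model used throughout). The SK-N-BE(2) calls were lost without shNSC replicate 1, with adjusted p = 0.061 for shERK5-4 and 0.149 for shERK5-5, and the shERK5-5 call also without shNSC replicate 3 (0.11) or either of shERK5-5 replicates 1 (0.0833) and 2 (0.123). Array medians lay between 6.35 and 6.43 for the CHLA-90 arrays, against 5.63 to 5.69 for those of SK-N-BE(2). Of 11 sympathetic lineage markers, 9 had a probe, and their mean signal per array was 9.40 to 9.88 with shERK5-4, 10.6 to 10.9 with shERK5-5 and 10.5 to 10.8 with shNSC in SK-N-BE(2). In CHLA-90 it was 10.8 to 11.1, 12.4 to 12.8 and 12.8 to 13.1 in the same order of hairpins. The catecholamine enzymes TH and DBH averaged 14.9 and 13.7 in CHLA-90 with shNSC, and 8.18 and 4.87 in SK-N-BE(2) with shNSC. The markers did not all differ that way. Of the 9, 6 were called higher in CHLA-90 than in SK-N-BE(2) under shNSC and 2 lower, ISL1 (-3.24) and PHOX2A (-0.66). Of all probes, 60% were called in 1 direction or the other in that comparison. CHLA-90 shERK5-5 replicate 1 had the lowest mean correlation with the other arrays of its group (r = 0.989), and the results that rest on it are given with and without it.

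By limma, with Benjamini-Hochberg adjustment over all 21448 probes and a threshold of 0.05, shERK5-4 changed 5 members in SK-N-BE(2), 4 of them higher and 1 lower, where 23.9% of all probes were called (12.2% higher and 11.7% lower). With shERK5-5 in SK-N-BE(2), 3 members were higher and 1 lower, where 12.8% of all probes were called (6.76% higher and 6.07% lower). In CHLA-90, shERK5-4 gave 3 members higher and 2 lower, against 18.3% of probes (10% higher and 8.25% lower), and shERK5-5 gave 1 higher and 0 lower, against 12.7% (5.85% higher and 6.84% lower). The 1 member called with shERK5-5 in CHLA-90, TXNRD1, is 10% of the 10 and near that background. In SK-N-BE(2) the median change of the 10 was 0.04 with shERK5-4 and 0.33 with shERK5-5, where the medians of all probes were 0.01 and -0.003. In CHLA-90 it was 0.47 and -0.03, where the medians of all probes were 0.01 and 0.05. NFE2L2, GPX4 and NQO1 were called higher with both hairpins in SK-N-BE(2), where 5.21% of all probes were called the same way with both. No member was called the same way with both hairpins in CHLA-90, where 3.51% of probes were, and 0 of 10 were called the same way in all 4 comparisons, where 1.29% of probes were. Both counts are near those shares. Both hairpins of a line were set against the same 3 shNSC arrays. RNA came from whole cultures, so fewer cells of a type and less RNA per cell cannot be told apart.

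**Figure D1:**
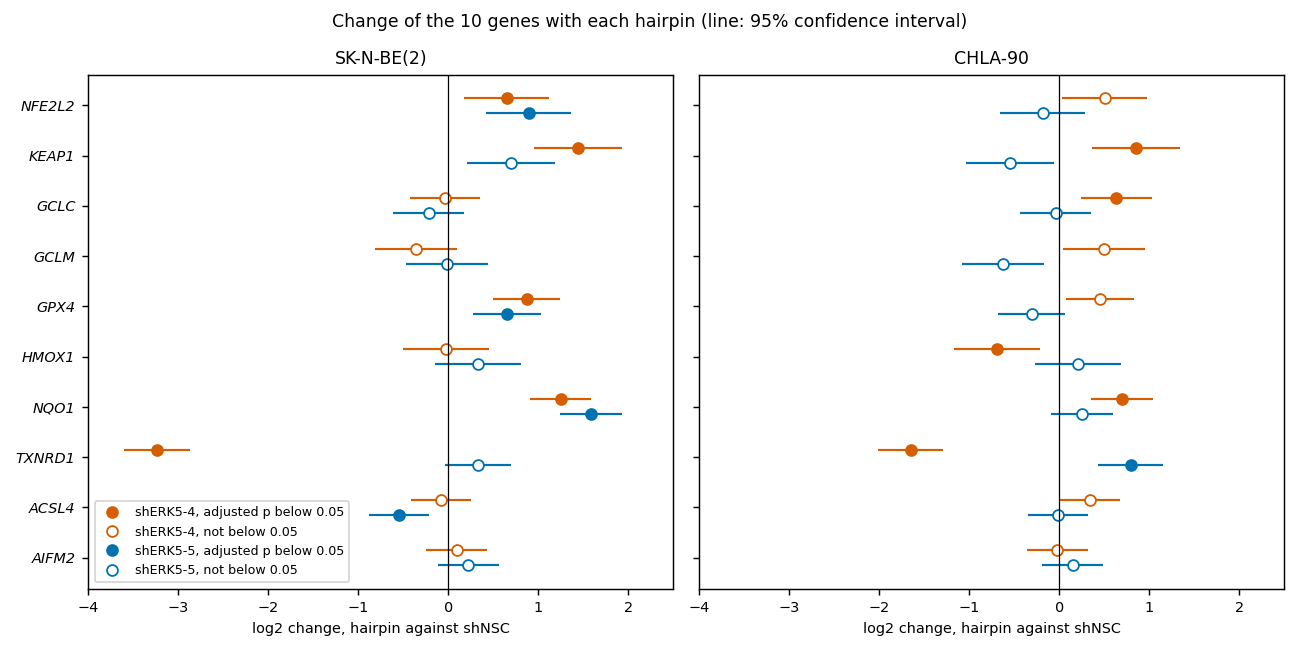
Log2 change of each member from shNSC with shERK5-4 and shERK5-5 in each line, with lines for the 95% confidence interval and filled points for adjusted p below 0.05. TXNRD1 lies at -3.24 and -1.65 with shERK5-4 and above 0 with shERK5-5, while NQO1 lies above 0 in all 4 comparisons.

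TXNRD1, the cytosolic selenoprotein that uses NADPH to keep thioredoxin reduced and is itself an NRF2 target, moved most of the 10. In SK-N-BE(2) its signals were 10.34, 9.74 and 10.33 with shERK5-4 (replicates 1 to 3, in that order here and below), 13.45, 13.82 and 13.84 with shERK5-5, and 13.34, 13.42 and 13.36 with shNSC. Every shERK5-4 array lay far below every array of the other hairpins, whose signals lay close together. TXNRD1 fell to 10.6% of shNSC with shERK5-4, a log2 change of -3.24 ± 0.17 (SE, n = 3 per group; adjusted p = 7.46e-12 by limma), and its change with shERK5-5 was 0.33 ± 0.17 (95% confidence interval -0.03 to 0.69, adjusted p = 0.285). In CHLA-90 the signals were 10.71, 10.53 and 10.59 with shERK5-4, 13.10, 13.18 and 12.89 with shERK5-5, and 12.14, 12.28 and 12.37 with shNSC. The 3 groups did not overlap, with shERK5-4 below and shERK5-5 above shNSC. TXNRD1 fell to 31.8% of shNSC with shERK5-4 (log2 change -1.65 ± 0.17, adjusted p = 3.14e-07) and rose 1.73-fold with shERK5-5 (0.79 ± 0.17, adjusted p = 0.00372). The hairpins differed by -3.57 in SK-N-BE(2) (adjusted p = 1.19e-12) and -2.45 in CHLA-90 (adjusted p = 6.48e-10), both shERK5-4 minus shERK5-5. The fall with shERK5-4 was smaller in CHLA-90 than in SK-N-BE(2) by 1.58 ± 0.25 (adjusted p = 0.000252).

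The sympathetic lineage markers also moved with shERK5-4: 5 of 9 were called lower in SK-N-BE(2) and 6 of 9 in CHLA-90, with none higher, against 0 and 2 lower with shERK5-5. With shERK5-5 in SK-N-BE(2), 1 marker was called higher, GATA3 (0.60). Of all probes, 11.7% were called lower with shERK5-4 in SK-N-BE(2) and 8.25% in CHLA-90, against 6.07% and 6.84% with shERK5-5. Of the fibroblast markers, 4 of 4 had a probe, and their mean signal per array in SK-N-BE(2) was 9.90 to 10.2 with shERK5-4, 11.7 to 11.8 with shERK5-5 and 10.6 to 10.7 with shNSC. In CHLA-90 it was 8.30 to 8.68 with shERK5-4, 8.96 to 9.44 with shERK5-5 and 8.80 to 8.91 with shNSC. These markers did not move together. The matrix proteoglycan LUM was called lower with shERK5-4 (-3.17) and higher with shERK5-5 (1.26) in SK-N-BE(2), and stood at 0.09 and 0.72 in CHLA-90, the second called. DCN, another matrix proteoglycan, was called at -0.56 and 2.21 in SK-N-BE(2) and at -1.63 with shERK5-4 in CHLA-90, and was 0.24 with shERK5-5 there. Of the collagen genes, COL1A1 was called higher with shERK5-4 in SK-N-BE(2) (0.88) and COL1A2 was called in none of the 4 comparisons. Among markers of other cell types, PTPRC, a leukocyte surface phosphatase, averaged 5.94 with shERK5-4 and 7.90 with shNSC in SK-N-BE(2) (-1.95). EPCAM, an epithelial adhesion molecule, was called there at 1.18 with shERK5-4 and -1.13 with shERK5-5, and the Schwann cell marker S100B at 0.66 with shERK5-4. None of those 3 was called against shNSC in CHLA-90. The part of these markers in the TXNRD1 result was not tested.

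The 17687 genes were searched for changes like those of TXNRD1, apart from symbols beginning with MIR, SNOR, RNU, LOC or LINC or holding -AS or orf. Over the 4 hairpin comparisons, the gene most like TXNRD1 among those searched was ANTXR2, an anthrax toxin receptor of the cell surface, with changes for shERK5-4 and shERK5-5 of -3.21 and 0.27 in SK-N-BE(2), then of -1.56 and 0.79 in CHLA-90 (root mean square difference 0.0597). The next was MARCHF11, a membrane ubiquitin ligase, at -3.29, 0.36, -1.88 and 0.52 in the same order (root mean square difference 0.181). These genes share with TXNRD1 the same 18 arrays and the same shNSC groups, and the likeness is a description.

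**Figure D2:**
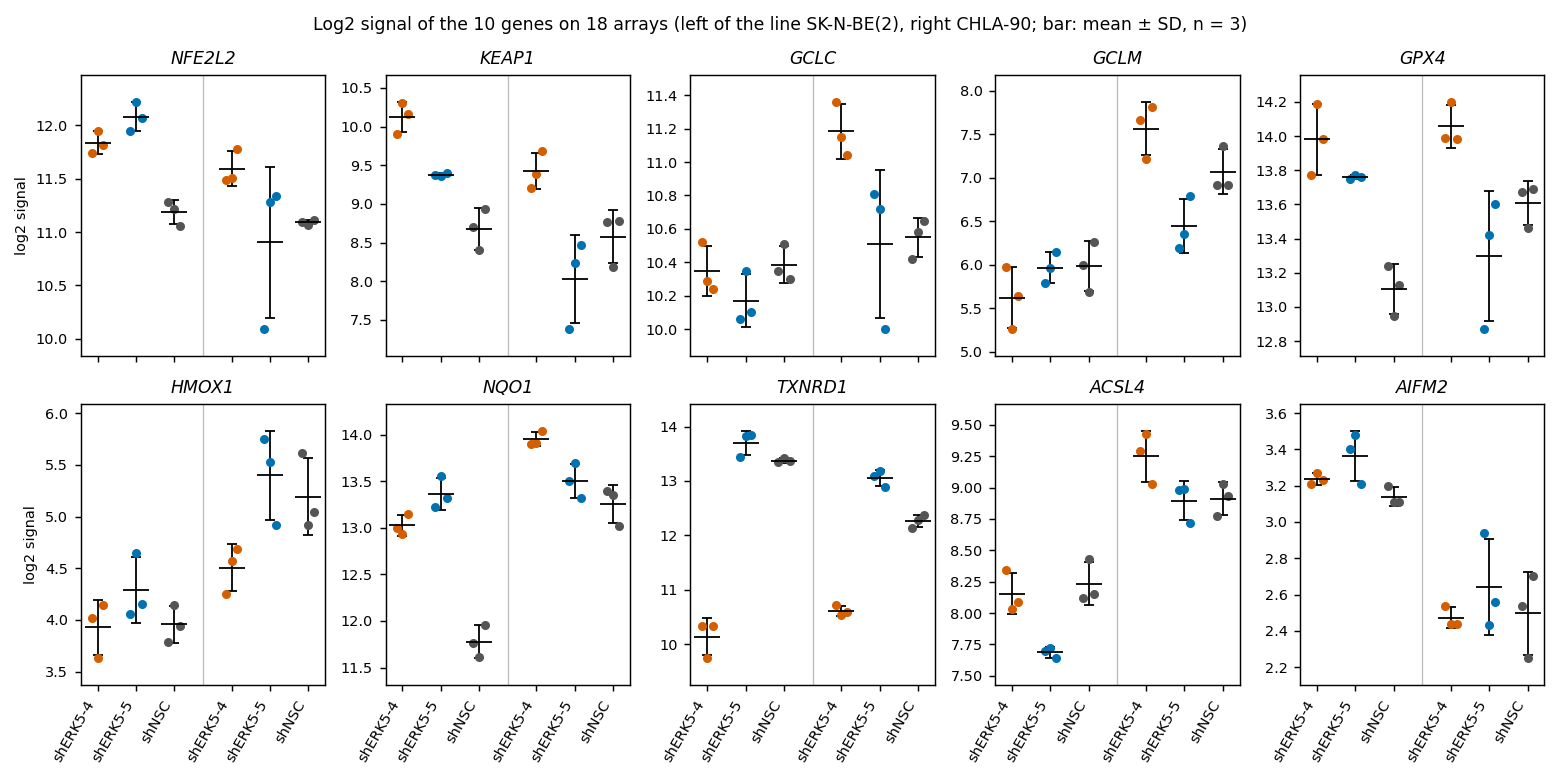
Log2 signal of each member on each of the 18 arrays, by line and hairpin, with a bar at the mean of the 3 replicates and its SD. TXNRD1 is lowest on the shERK5-4 arrays of both lines, NQO1 is higher with both hairpins than with shNSC in SK-N-BE(2), and AIFM2 stays between 2.25 and 3.48 throughout.

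NQO1, the quinone reductase often used to read out NRF2 activity, rose with both hairpins in SK-N-BE(2) and with shERK5-4 in CHLA-90. In SK-N-BE(2) its signals were 13.00, 12.93 and 13.15 with shERK5-4, 13.22, 13.55 and 13.32 with shERK5-5, and 11.76, 11.61 and 11.96 with shNSC. All 6 arrays with a hairpin against ERK5 lay above all 3 shNSC arrays. The rise was 2.38-fold with shERK5-4 (log2 change 1.25 ± 0.16, adjusted p = 3.84e-06 by limma) and 3.00-fold with shERK5-5 (1.59 ± 0.16, adjusted p = 4.02e-07). In CHLA-90 the signals were 13.90, 13.91 and 14.04 with shERK5-4, 13.50, 13.69 and 13.32 with shERK5-5, and 13.39, 13.35 and 13.02 with shNSC. The shERK5-4 arrays stood apart, and those of shERK5-5 overlapped shNSC. NQO1 rose 1.62-fold with shERK5-4 (0.70 ± 0.16, adjusted p = 0.00369), and its change with shERK5-5 was 0.25 ± 0.16 (interval -0.09 to 0.59, adjusted p = 0.364). The effect of shERK5-5 in CHLA-90 was below that in SK-N-BE(2) by 1.34 on the log2 scale (interaction -1.34 ± 0.23, adjusted p = 0.00159). For shERK5-4 the same difference was -0.55 ± 0.23 (adjusted p = 0.176). CHLA-90 started higher, with a mean of 13.25 ± 0.20 (SD, n = 3) against 11.78 ± 0.18 in SK-N-BE(2), both with shNSC. The genes with changes most like those of NQO1 were PLAGL2, a zinc finger transcription factor (1.46, 1.72, 0.75 and 0.35 for shERK5-4 and shERK5-5 in SK-N-BE(2), then in CHLA-90; root mean square difference 0.135), and SLC22A5, the carnitine transporter (1.30, 1.63, 0.98 and 0.23; 0.147).

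NFE2L2 itself had signals of 11.74, 11.95 and 11.82 with shERK5-4, 11.95, 12.22 and 12.07 with shERK5-5, and 11.28, 11.22 and 11.06 with shNSC in SK-N-BE(2). Both hairpins lay above shNSC without overlap. The transcript rose 1.57-fold with shERK5-4 (log2 change 0.65 ± 0.23, adjusted p = 0.0421 by limma) and 1.86-fold with shERK5-5 (0.89 ± 0.23, adjusted p = 0.00977). The shERK5-4 call was lost without any single one of its 6 arrays (adjusted p from 0.0576 to 0.131) and with median centring of the arrays (0.0506), while the shERK5-5 call was kept without each array in turn. In CHLA-90 the signals were 11.49, 11.51 and 11.78 with shERK5-4, 10.09, 11.28 and 11.34 with shERK5-5, and 11.09, 11.07 and 11.11 with shNSC. Replicate 1 of shERK5-5 lay far below the rest, and the other replicates of that hairpin lay above shNSC. The changes were 0.50 ± 0.23 with shERK5-4 (interval 0.03 to 0.98, adjusted p = 0.148) and -0.19 ± 0.23 with shERK5-5 (-0.66 to 0.29, adjusted p = 0.668), neither called. Without shERK5-5 replicate 1 the NFE2L2 change with that hairpin was 0.22 (adjusted p = 0.473).

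KEAP1, the substrate adaptor that delivers NRF2 for degradation, rose with shERK5-4 in both lines. Its SK-N-BE(2) signals were 9.91, 10.30 and 10.16 with shERK5-4, 9.38, 9.36 and 9.40 with shERK5-5, and 8.70, 8.40 and 8.94 with shNSC. The 3 groups did not overlap, and shERK5-4 was highest. The change was 1.44 ± 0.24 with shERK5-4, a 2.72-fold rise (adjusted p = 6.00e-05 by limma), and 0.70 ± 0.24 with shERK5-5 (interval 0.21 to 1.19), which missed the threshold at adjusted p = 0.0542. That value passed under 6 of the alternatives tried, among them the fit to SK-N-BE(2) alone and the fit with array weights. In CHLA-90 the signals were 9.21, 9.39 and 9.68 with shERK5-4, 7.38, 8.24 and 8.47 with shERK5-5, and 8.77, 8.18 and 8.78 with shNSC. The shERK5-4 arrays were above the others, and shERK5-5 overlapped shNSC with its replicate 1 lowest of all. KEAP1 rose 1.80-fold with shERK5-4 (0.85 ± 0.24, adjusted p = 0.0130), a call lost without shERK5-4 replicate 3 (0.0749) or shNSC replicate 2 (0.0955). With shERK5-5 the change was -0.55 ± 0.24 (interval -1.04 to -0.06, adjusted p = 0.138), and -0.22 without its replicate 1. Without its replicate 3 KEAP1 stood at -0.77 and was called lower (adjusted p = 0.0429).

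GPX4, the selenoenzyme that reduces phospholipid hydroperoxides, had signals of 13.77, 14.19 and 13.98 with shERK5-4, 13.75, 13.77 and 13.76 with shERK5-5, and 13.24, 12.95 and 13.13 with shNSC in SK-N-BE(2). Both hairpins lay above shNSC without overlap. GPX4 rose 1.83-fold with shERK5-4 (log2 change 0.87 ± 0.18, adjusted p = 0.000755 by limma) and 1.57-fold with shERK5-5 (0.65 ± 0.18, adjusted p = 0.0163). The shERK5-5 call was lost without shERK5-5 replicate 2 (0.0516) or shNSC replicate 2 (0.0860). In CHLA-90 the signals were 13.99, 14.20 and 13.98 with shERK5-4, 12.87, 13.42 and 13.60 with shERK5-5, and 13.67, 13.46 and 13.69 with shNSC. The shERK5-4 arrays lay above shNSC and the shERK5-5 arrays overlapped it. Neither change passed the threshold there, at 0.45 ± 0.18 with shERK5-4 (interval 0.08 to 0.82, adjusted p = 0.0918) and -0.31 ± 0.18 with shERK5-5 (-0.68 to 0.06, adjusted p = 0.294), the second being -0.10 without shERK5-5 replicate 1.

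GCLC and GCLM encode the catalytic and the modifier subunit of glutamate-cysteine ligase, which makes the rate-limiting step of glutathione synthesis. GCLC signals in CHLA-90 were 11.36, 11.15 and 11.04 with shERK5-4, 10.81, 10.72 and 10 with shERK5-5, and 10.42, 10.58 and 10.65 with shNSC. The shERK5-4 arrays were above all others, and GCLC rose 1.55-fold (log2 change 0.63 ± 0.19, adjusted p = 0.0210 by limma). This call was lost without shNSC replicate 1 (0.0868) or either of shERK5-4 replicates 1 (0.0986) and 2 (0.0530), and in the fit to CHLA-90 alone (0.0512). The other GCLC changes were between -0.22 and -0.04, with adjusted p of at least 0.590. GCLM signals in CHLA-90 were 7.67, 7.22 and 7.81 with shERK5-4, 6.19, 6.36 and 6.79 with shERK5-5, and 6.92, 7.37 and 6.92 with shNSC. The shERK5-5 arrays lay below every other array and shERK5-4 overlapped shNSC. The changes were 0.50 ± 0.22 with shERK5-4 (interval 0.04 to 0.95, adjusted p = 0.134) and -0.62 ± 0.22 with shERK5-5 (-1.08 to -0.17, adjusted p = 0.0664). With shERK5-5, GCLM was called lower without its replicate 3 (-0.795, adjusted p = 0.0288) and stood at -0.495 without its replicate 1 (0.231). In SK-N-BE(2) GCLM signals were 5.26 to 5.97 with shERK5-4, 5.79 to 6.15 with shERK5-5 and 5.69 to 6.26 with shNSC, overlapping throughout.

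HMOX1, heme oxygenase-1, which opens heme and releases its iron, had signals of 4.25, 4.57 and 4.69 with shERK5-4, 5.75, 5.53 and 4.92 with shERK5-5, and 5.62, 4.92 and 5.04 with shNSC in CHLA-90. The shERK5-4 arrays lay below the other groups, which overlapped. HMOX1 fell to 62.0% of shNSC with shERK5-4 (log2 change -0.69 ± 0.23, adjusted p = 0.0400 by limma), a call lost when shERK5-4 replicate 1 (0.169) or 2 (0.0802), or shNSC replicate 1 (0.232) or 3 (0.0550), was left out, and in the fit to CHLA-90 alone (0.0636). In SK-N-BE(2) its signals ran from 3.63 to 4.65 over all 9 arrays, and neither change passed (-0.03 and 0.33 for shERK5-4 and shERK5-5). These signals are low on the array, and no detection calls were used, so how far they stand above background is unknown.

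ACSL4 loads polyunsaturated fatty acids onto coenzyme A and so supplies the lipids that ferroptosis oxidises. In SK-N-BE(2) its signals were 8.34, 8.03 and 8.09 with shERK5-4, 7.70, 7.72 and 7.64 with shERK5-5, and 8.12, 8.43 and 8.15 with shNSC. The shERK5-5 arrays lay below the others, and ACSL4 fell to 68.5% of shNSC (log2 change -0.55 ± 0.16, adjusted p = 0.0256 by limma). The call was lost when shERK5-5 replicate 1 (0.0656), 2 (0.0613) or 3 (0.0858), or shNSC replicate 2 (0.143), was left out. With shERK5-4 the change was -0.08 ± 0.16. In CHLA-90 the changes were 0.34 ± 0.16 with shERK5-4 and -0.01 ± 0.16 with shERK5-5, neither called. AIFM2, also called FSP1, regenerates ubiquinol at membranes independently of glutathione. Its signals were 2.44 to 2.54 with shERK5-4, 2.43 to 2.94 with shERK5-5 and 2.25 to 2.70 with shNSC in CHLA-90, and 3.11 to 3.48 over all 9 SK-N-BE(2) arrays. AIFM2 was not called with either hairpin in either line, with changes between -0.02 and 0.22, and its mean of 2.89 was below the 25th percentile of probe means (3.93).

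Set against each other directly, with no shared control array, the hairpins differed in 3 members in SK-N-BE(2), where 24.5% of all probes were called. KEAP1 (log2 difference 0.74, shERK5-4 minus shERK5-5) and ACSL4 (0.47) were higher and TXNRD1 lower with shERK5-4. Only TXNRD1 remained called without each array in turn. The ACSL4 difference was also lost in the fit to SK-N-BE(2) alone (adjusted p = 0.0556 by limma) and with median centring (0.0544), array weights (0.0512) or the trend and robust fit (0.05003). In CHLA-90 the hairpins differed in 8 of 10 members, where 27.2% of probes were called. NFE2L2 (0.69), KEAP1 (1.40), GCLC (0.67), GCLM (1.12), GPX4 (0.76) and NQO1 (0.45) were higher with shERK5-4, and HMOX1 (-0.90) and TXNRD1 (-2.45) lower (adjusted p from 6.48e-10 to 0.0469 by limma). Without shERK5-5 replicate 1 there, KEAP1 was at 1.07, GCLM at 0.99, GPX4 at 0.55 and HMOX1 at -0.72, all still called. The NFE2L2 difference was 0.28 without that array (adjusted p = 0.229). It was also lost without shERK5-4 replicate 2 (0.0533) or 3 (0.112), in the fit to CHLA-90 alone (0.0732), with quantile normalization (0.0690) and with array weights (0.0628). The NQO1 difference was lost without any of 5 of the 6 arrays (adjusted p up to 0.157), and the GCLC difference without shERK5-4 replicate 1 (0.0524) or shERK5-5 replicate 3 (0.0815). For NQO1 it was also lost in the fit to CHLA-90 alone (0.0656) and with median centring (0.0535), quantile normalization (0.0727), array weights (0.0740) or the replicate block (0.0543). The NRF2 targets among these 8 genes differed in both directions: GCLC, GCLM and NQO1 were higher with shERK5-4 than with shERK5-5, and TXNRD1 and HMOX1 lower.

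**Figure D3:**
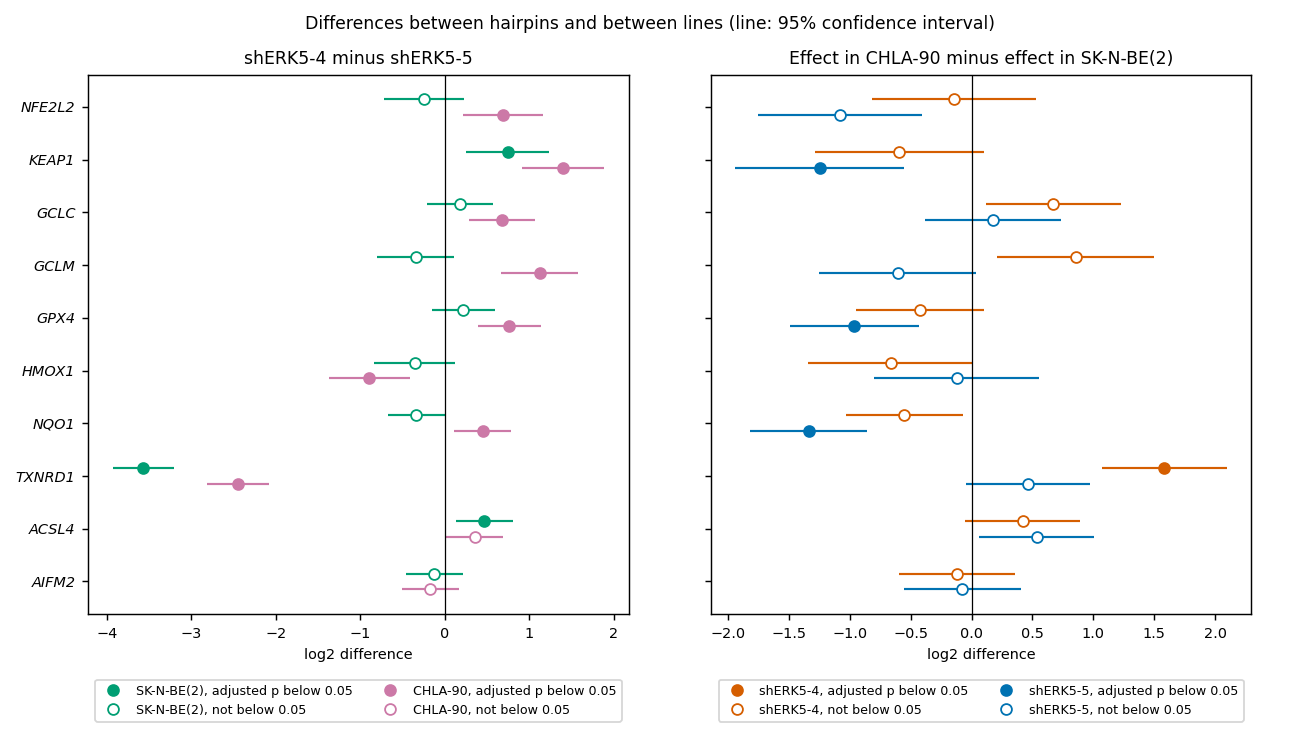
Left, shERK5-4 minus shERK5-5 in each line; right, the effect of each hairpin in CHLA-90 minus its effect in SK-N-BE(2), on the log2 scale with 95% confidence intervals and filled points for adjusted p below 0.05. TXNRD1 is at -3.57 and -2.45 on the left and at 1.58 on the right for shERK5-4.

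Between the lines, the effect of shERK5-4 differed for 1 member, TXNRD1, where 7.23% of all probes were called. The effect of shERK5-5 differed for 3 members, where 5.39% of probes were called: KEAP1 (-1.25 ± 0.33, adjusted p = 0.0300 by limma), GPX4 (-0.96 ± 0.25, 0.0280) and NQO1 (-1.34 ± 0.23, 0.00159), all CHLA-90 minus SK-N-BE(2). Without CHLA-90 shERK5-5 replicate 1, the KEAP1 difference was -0.92 (adjusted p = 0.0767) and the GPX4 difference -0.75 (0.0721), so neither passed. The KEAP1 call was lost without any of 8 of the 12 arrays in that comparison (adjusted p from 0.0564 to 0.0926) and the GPX4 call without any of 7 (0.0556 to 0.0825), among them all 3 shERK5-5 arrays of SK-N-BE(2), while NQO1 was called without each array in turn. NFE2L2 had a difference of -1.08 ± 0.32 that missed the threshold (adjusted p = 0.0535). It was -0.67 without CHLA-90 shERK5-5 replicate 1 (adjusted p = 0.0896), and it passed without replicate 2 (0.0276) or 3 (0.0180) of that group. Under shNSC alone, 7 members differed between the lines, where 60% of all probes were called. GCLM (1.09), GPX4 (0.50), HMOX1 (1.24), NQO1 (1.48) and ACSL4 (0.68) were higher and TXNRD1 (-1.11) and AIFM2 (-0.64) lower in CHLA-90 than in SK-N-BE(2). The median difference over all probes was 0.45 in that comparison, and the median signal of the shNSC arrays was 6.385 in CHLA-90 and 5.67 in SK-N-BE(2), 0.72 apart. Centring each array on its median takes that 0.72 away, and GPX4 then stood at -0.22 and ACSL4 at -0.04, neither called. In that setting GCLM (0.37) and HMOX1 (0.52) no longer passed, and KEAP1 (-0.82), NFE2L2 (-0.815) and GCLC (-0.555, against 0.16 as deposited) were called lower. NQO1 (0.76) was still called higher and TXNRD1 (-1.83) and AIFM2 (-1.36) lower in CHLA-90. The GPX4 difference in the deposited values was also lost without shNSC replicate 1 (0.0613) or 3 (0.0630) of CHLA-90 or shNSC replicate 2 of SK-N-BE(2) (0.0845).

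The wider pathways were read in 6 lists of 130 genes, of which 120 had a probe. Some genes stand in more than 1 list. Over all of them, 27 rose and 22 fell with shERK5-4 in SK-N-BE(2), 18 rose and 7 fell with shERK5-5 in SK-N-BE(2), 14 rose and 13 fell with shERK5-4 in CHLA-90, and 3 rose and 13 fell with shERK5-5 in CHLA-90. With shERK5-4 in SK-N-BE(2) that is 22.5% higher and 18.3% lower, where 12.2% and 11.7% of all probes were called. With shERK5-5 in SK-N-BE(2) it is 15% and 5.83%, against 6.76% and 6.07% of probes. In CHLA-90 it is 11.7% and 10.8% with shERK5-4, against 10% and 8.25%, and 2.5% and 10.8% with shERK5-5, against 5.85% and 6.84%. The median changes were 0.08, 0.15, 0.14 and -0.10 in that order. All probes include dim ones. With probes below the 25th percentile of mean signal left out, 5262, 2904, 4049 and 2804 of 16088 probes were called, in the same order. Each is a larger share than that of all probes. The shares given for members and lists are set against all probes.

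Of 32 genes of glutathione supply and use, 11 rose and 6 fell with shERK5-4 and 7 rose and 0 fell with shERK5-5 in SK-N-BE(2), with medians of 0.10 and 0.15. In CHLA-90, 3 rose and 3 fell with shERK5-4 and 1 rose and 4 fell with shERK5-5, with medians of 0.15 and -0.14. In SK-N-BE(2) the share called in either direction was 53.1% with shERK5-4, where 23.9% of all probes were, and 21.9% with shERK5-5, against 12.8%. CHLA-90 had 18.8% and 15.6%, near the 18.3% and 12.7% of all probes. SLC7A11, the cystine importer that feeds glutathione synthesis, had SK-N-BE(2) signals of 11.46, 10.33 and 11.10 with shERK5-4, 9.97, 9.89 and 10.05 with shERK5-5, and 9.51, 9.21 and 9.42 with shNSC. The 3 groups did not overlap. SLC7A11 rose with shERK5-4 in SK-N-BE(2) (1.58, adjusted p = 9.22e-05 by limma) and with both hairpins in CHLA-90 (1.01 and 0.89), and its change with shERK5-5 in SK-N-BE(2) was 0.59 (adjusted p = 0.188). The CHLA-90 call with shERK5-5 was lost without its replicate 1 (0.63, adjusted p = 0.178) or shNSC replicate 1 (0.64, 0.181), and that with shERK5-4 without its replicate 1 (0.805, 0.0711) or shNSC replicate 1 (0.765, 0.0787). Under shNSC its signal averaged 5.98 in CHLA-90 and 9.38 in SK-N-BE(2).

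CHAC1, which degrades glutathione, had signals of 6.41, 6.83 and 7.34 with shERK5-4, 8.05, 7.92 and 8.47 with shERK5-5, and 5.34, 5.6 and 5.95 with shNSC in SK-N-BE(2). It rose there with shERK5-4 (log2 change 1.23) and shERK5-5 (2.52), while in CHLA-90 CHAC1 fell by 0.87 with shERK5-4 and stood at -0.05 with shERK5-5. GLRX, the cytosolic glutaredoxin, rose with both hairpins in SK-N-BE(2) (2.04 and 0.99) and with shERK5-4 in CHLA-90 (0.61), the last lost without shERK5-4 replicate 3 (0.0628). GLRX5, the mitochondrial glutaredoxin of iron-sulfur cluster assembly, fell with shERK5-4 in both lines (-2.14 in SK-N-BE(2) and -1.64 in CHLA-90) and was not called with shERK5-5. GSS, glutathione synthetase, rose with shERK5-4 in SK-N-BE(2) (0.92) and CHLA-90 (1.22) and was not called with shERK5-5 (0.10 and -0.16).

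Of 31 NRF2 partners and target genes, 27 had a probe. In SK-N-BE(2), 5 rose and 3 fell with shERK5-4 and 6 rose and 0 fell with shERK5-5, with medians of 0.27 and 0.27. In CHLA-90, 5 rose and 4 fell with shERK5-4 and 1 rose and 2 fell with shERK5-5, with medians of 0.16 and -0.07. In SK-N-BE(2) that is 29.6% of them called with shERK5-4, against 23.9% of all probes, and 22.2% with shERK5-5, against 12.8%. CHLA-90 had 33.3% with shERK5-4, against 18.3% of all probes, and 11.1% with shERK5-5, near the 12.7% of all probes. BLVRB, a biliverdin reductase, rose with shERK5-4 (1.01 in SK-N-BE(2) and 1.96 in CHLA-90), as did BTRC (1.22 and 1.30), an F-box protein that marks NRF2 for degradation independently of KEAP1. UGDH, which makes UDP-glucuronate, fell with shERK5-4 (-0.60 and -1.48), a call lost in SK-N-BE(2) without any of 4 arrays (adjusted p from 0.0567 to 0.162). BLVRB, BTRC and UGDH were not called with shERK5-5 in either line. The aldo-keto reductases AKR1C1, AKR1C2 and AKR1C3, named here after their values were seen and too alike in sequence for their probes to be held apart with certainty, rose with shERK5-5 in SK-N-BE(2) (1.61, 1.24 and 1.11) and fell with shERK5-4 in CHLA-90 (-2.26, -1.87 and -1.13).

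Of 16 genes of the thioredoxin and peroxiredoxin system, 15 had a probe. With shERK5-4 and shERK5-5 in SK-N-BE(2), 3 and 4 rose and 2 and 1 fell; in CHLA-90, 3 and 0 rose and 0 and 1 fell. That is 33.3% called with each hairpin in SK-N-BE(2), where 23.9% of all probes were with shERK5-4 and 12.8% with shERK5-5. CHLA-90 had 20% with shERK5-4, near the 18.3% of all probes, and 6.67% with shERK5-5, below the 12.7% of all probes. TXNIP, the inhibitor of thioredoxin, rose with both hairpins in SK-N-BE(2) (1.75 and 1.11) and with shERK5-4 in CHLA-90 (1.15). MSRB2, a mitochondrial methionine sulfoxide reductase, rose in the same 3 comparisons (0.81, 0.98 and 0.76). Its shERK5-4 calls were lost without any of 2 arrays in SK-N-BE(2) (adjusted p = 0.0523 and 0.0586) and 4 in CHLA-90 (0.0547 to 0.0935). TXN2, mitochondrial thioredoxin, fell with shERK5-4 (-0.87) and rose with shERK5-5 (0.82) in SK-N-BE(2), and PRDX6, a peroxiredoxin that reduces phospholipid hydroperoxides, fell with shERK5-4 there (-0.65). The TXN2 rise was lost without shERK5-5 replicate 3 (0.0643) or shNSC replicate 2 (0.111), and the PRDX6 fall without shERK5-4 replicate 2 (0.0881) or shNSC replicate 3 (0.0602). Of 11 genes of selenoprotein synthesis, the route that TXNRD1 and GPX4 depend on, 5 rose and 1 fell with shERK5-4 and 1 rose and 2 fell with shERK5-5 in SK-N-BE(2), and 1 rose with shERK5-4 and 1 fell with shERK5-5 in CHLA-90. In SK-N-BE(2) that is 54.5% called with shERK5-4, against 23.9% of all probes, and 27.3% with shERK5-5, against 12.8%. CHLA-90 had 9.09% with each, below the 18.3% and 12.7% of all probes. SECISBP2L rose with shERK5-4 in both lines (1.93 and 1.39). SCLY, selenocysteine lyase, rose with both hairpins in SK-N-BE(2) (0.88 and 0.79), and LRP8, a receptor for selenoprotein P, fell with both there (-0.68 and -0.90). The SCLY call with shERK5-5 was lost without its replicate 3 (0.0584), and the LRP8 call with shERK5-4 without its replicate 1 (0.0702). SEPHS2, which makes selenophosphate, fell with shERK5-5 in CHLA-90 (-1.22).

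**Figure D4:**
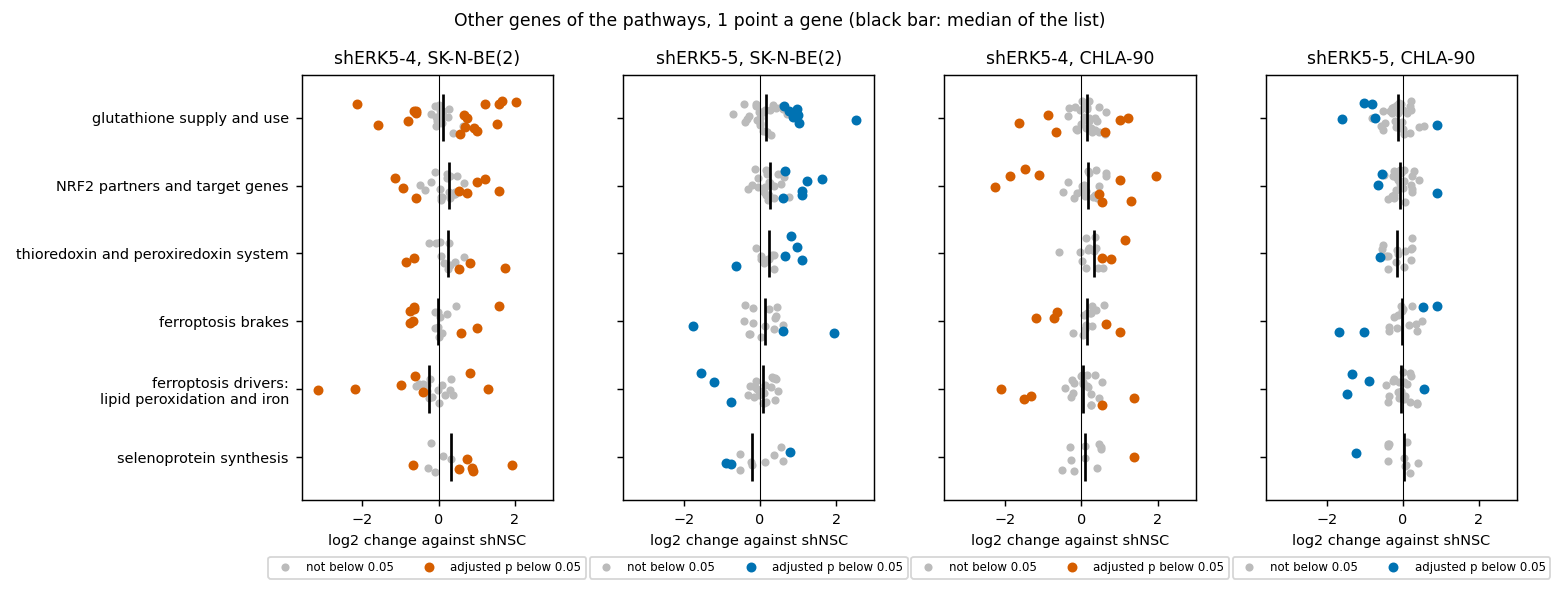
Log2 change from shNSC of each measured gene in the 6 pathway lists, for each hairpin and line, coloured where adjusted p was below 0.05, with a black bar at the list median. Medians lie between -0.25 and 0.32, and the lowest point is SLC39A14, among the ferroptosis drivers, at -3.17 with shERK5-4 in SK-N-BE(2).

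Genes that restrain ferroptosis other than the members moved in both directions. Of 20 listed, 17 had a probe, and 3 rose and 5 fell with shERK5-4 and 2 rose and 1 fell with shERK5-5 in SK-N-BE(2). In CHLA-90, 2 rose and 3 fell with shERK5-4, and 2 rose and 2 fell with shERK5-5. For shERK5-4 that is 47.1% called in SK-N-BE(2), where 23.9% of all probes were, and 29.4% in CHLA-90, against 18.3%. For shERK5-5 it is 17.6% in SK-N-BE(2), against 12.8% of all probes, and 23.5% in CHLA-90, against 12.7%. SCD, the desaturase that makes monounsaturated fatty acids, fell in all 4 comparisons (log2 changes for shERK5-4 and shERK5-5 of -0.64 and -1.76 in SK-N-BE(2), then of -1.19 and -1.67 in CHLA-90). GCH1, the first enzyme of tetrahydrobiopterin synthesis, fell with shERK5-4 in both lines (-0.64 and -0.72) and with shERK5-5 in CHLA-90 (-1.02). The shERK5-4 calls were lost without any of 3 arrays in SK-N-BE(2) (adjusted p up to 0.128) and any of 2 in CHLA-90 (up to 0.0722). MBOAT1, a phospholipid acyltransferase, rose with both hairpins in SK-N-BE(2) (0.60 and 1.93) and with shERK5-5 in CHLA-90 (0.52), the last lost without any single one of its 6 arrays (adjusted p from 0.0524 to 0.0918 by limma), shERK5-5 replicate 1 among them (0.49, adjusted p = 0.0838). DHODH, the mitochondrial enzyme of pyrimidine synthesis that also reduces ubiquinone, fell with shERK5-4 in SK-N-BE(2) (-0.76).

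Among 26 genes of lipid peroxidation and iron supply, 23 had a probe, and 2 rose and 5 fell with shERK5-4 and 0 rose and 3 fell with shERK5-5 in SK-N-BE(2). In CHLA-90, 2 rose and 3 fell with shERK5-4, and 1 rose and 3 fell with shERK5-5. For shERK5-4 that is 30.4% called in SK-N-BE(2), where 23.9% of all probes were, and 21.7% in CHLA-90, against 18.3%. For shERK5-5 it is 13% in SK-N-BE(2), near the 12.8% of all probes, and 17.4% in CHLA-90, against 12.7%. NCOA4, the receptor that brings ferritin to autophagosomes and so frees its iron, had SK-N-BE(2) signals of 10.40, 9.84 and 10.27 with shERK5-4, 10.59, 10.78 and 11.13 with shERK5-5, and 12.18, 12.41 and 12.54 with shNSC. In CHLA-90 NCOA4 stood at 11.08, 11.28 and 11.25 with shERK5-4, 11.29, 11.32 and 11.53 with shERK5-5, and 12.83, 12.64 and 12.67 with shNSC. All arrays with a hairpin against ERK5 lay below all shNSC arrays of their line, and NCOA4 fell to 21.7% and 34.3% of shNSC in SK-N-BE(2) and to 35.1% and 39.7% in CHLA-90 (largest adjusted p = 2.12e-05 by limma).

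SLC39A14, a plasma membrane importer of zinc, manganese and non-transferrin iron, fell in all 4 comparisons too, in SK-N-BE(2) to 11.1% of shNSC with shERK5-4 and 43.0% with shERK5-5, and to 23.0% and 36.2% in CHLA-90. Its relative SLC39A8 rose with shERK5-4 in both lines (0.82 and 1.38). LPCAT3, which places polyunsaturated chains in phospholipids after ACSL4 has activated them, fell with shERK5-4 in both lines (-1.0 and -1.33), the SK-N-BE(2) call being lost without shERK5-4 replicate 2 (0.147) or shNSC replicate 3 (0.0681). TFRC, the transferrin receptor, fell with shERK5-4 in SK-N-BE(2) (-0.61, adjusted p = 0.0263 by limma), a call lost without any of 3 arrays (0.0790 to 0.168), and was not called elsewhere. GSR, glutathione reductase, was not called with either hairpin in either line.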

How the data were processed

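Total RNA was measured on 18 GeneChip whole-transcript arrays labelled with biotin, per the labels' protocols. The deposited log2 values, 1 per probe and array, were used as the authors gave them. The array build is not given in the sources used here, nor is the software or summarisation method. Array medians are alike within a line and differ between lines, so levels set across lines depend on a normalization that may have been made per line. A probe annotation table gave 17709 of 21448 probes 1 gene symbol, 0 several and 3739 none, and the highest-mean probe stood for a gene.

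One limma model (limma 3.58.1, R 4.3.3; lmFit and eBayes, 12 residual and 9.59 prior degrees of freedom) with 6 group means was fitted to all 18 arrays and all probes, with Benjamini-Hochberg adjustment per contrast and a threshold of 0.05. It was first tested on simulated data. Errors in the text are standard errors of that model unless marked SD, and intervals are 95% intervals. Number of arrays limits the precision, since array signals have no read depth. Nothing in the labels says from which separate cultures the replicates came beyond calling them biological.

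The members and lists were chosen with earlier results of these data known. Genes named are the members, MAPK7, from each pathway list the 4 genes called with 1 sign in the largest number of the 4 hairpin comparisons (from 1 to 4 of them, ties by mean absolute change), and CHAC1, SLC7A11, GSR, GSS, TFRC, GCH1, DHODH and LRP8 whatever their values, with the 2 genes most like each member called in at least 3 hairpin comparisons. Symbols beginning with MIR, SNOR, RNU, LOC or LINC, or holding -AS or orf, were left out of the search for alike genes. Markers of Schwann, blood, endothelial and epithelial cells had mean signals per array from 3.19 to 5.93, and those called with a hairpin are named beside the TXNRD1 result. Alternatives were median centring, quantile normalization, leaving out dim probes, averaging probes, a fit to 1 line, trend and robust eBayes, array weights, a replicate block, a threshold of 0.01 and leaving out each array. Promoter sequences are RefSeq's. Figures were drawn with matplotlib 3.10.9.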

Additional observations from a re-analysis of the deposited data

Results flagged for a closer look

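The effect of a hairpin differed between the lines by the model's interaction test for 4 members, given here as CHLA-90 minus SK-N-BE(2) on the log2 scale. With shERK5-5 the difference was -1.25 for KEAP1, -0.96 for GPX4 and -1.34 for NQO1, and with shERK5-4 it was 1.58 for TXNRD1. The KEAP1 call was lost without any of 8 arrays (adjusted p from 0.0564 to 0.0926) and the GPX4 call without any of 7 (0.0556 to 0.0825). The smallest differences among those came without CHLA-90 shERK5-5 replicate 1 (-0.92 for KEAP1 and -0.75 for GPX4).

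Several named pathway genes differed in the same way. For CHAC1 the difference was -2.10 with shERK5-4 and -2.56 with shERK5-5. For GLRX it was -1.43 with shERK5-4 and -1.0 with shERK5-5. For MBOAT1 it was -0.81 with shERK5-4 and -1.41 with shERK5-5. TXN2 differed with shERK5-5 (-1.33) and DHODH with shERK5-4 (0.87).

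The 3 aldo-keto reductases differed with both hairpins. With shERK5-4 the differences were -1.78 for AKR1C1, -2.09 for AKR1C2 and -1.55 for AKR1C3. With shERK5-5 they were -1.65 for AKR1C1, -1.47 for AKR1C2 and -1.07 for AKR1C3. Their signals were far apart at the start, with AKR1C1 at a mean of 14.8 in CHLA-90 with shNSC and 8.63 in SK-N-BE(2) with shNSC, and AKR1C1 probes can share sequence with those of AKR1C2 and AKR1C3.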

How the results depend on the processing

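Of 1431 values of the members recomputed under the alternatives, 1318 kept their side of the threshold, 90 lost the call, 20 gained one and 3 reversed. Among the 1318, 29 uncalled values changed sign. Of 15 calls against shNSC, 9 held under all 14 alternatives run for each, the threshold of 0.01 aside: NQO1 in 3 comparisons, TXNRD1 in 3, KEAP1 and GPX4 with shERK5-4 in SK-N-BE(2), and NFE2L2 with shERK5-5 in SK-N-BE(2). Averaging probes, 1 of the 14, could not change a member's value, since each member had 1 probe. Its 90 values are among the 1318. The 3 reversals came in the lines under shNSC with each array centred on its median across lines, chosen after seeing the data: ACSL4 -0.042 (0.68 as reported), GCLC -0.56 (0.16) and GPX4 -0.22 (0.50). At a threshold of 0.01, MAPK7 in SK-N-BE(2) (-0.69 with shERK5-4 and -0.64 with shERK5-5) was not called, and the members called were 2 with shERK5-5 in SK-N-BE(2) (4 at 0.05), 2 with shERK5-4 in CHLA-90 (5), 1 between hairpins in SK-N-BE(2) (3), 5 between hairpins in CHLA-90 (8) and 1 between lines for shERK5-5 (3). Of all 21448 probes, 1733, 2481, 3858, 3715 and 382 were called at that threshold, in the order of those member counts. With shERK5-4 in CHLA-90 the members called were 8 with array weights and 3 with a fit to 1 line, where 5822 and 3776 of all probes were called. Leaving out 1 array gave MAPK7 changes in SK-N-BE(2) of -0.86 to -0.59 with shERK5-4 and -0.80 to -0.53 with shERK5-5, the calls being lost as given above, and 2 to 5 members with shERK5-5 in SK-N-BE(2), 3 to 4 with shERK5-4 and 1 to 3 with shERK5-5 in CHLA-90, 1 to 2 between hairpins in SK-N-BE(2) and 1 to 4 between lines for shERK5-5. In the order of those member counts, the probes called ran from 2036 to 2324, 2899 to 3120, 1720 to 2822, 4475 to 5048 and 643 to 1401. Of 59 calls against shNSC in the pathway genes named by the rule, 15 were lost without some array, as given beside each: with shERK5-4 in SK-N-BE(2) GCH1, LPCAT3, LRP8, MSRB2, PRDX6, TFRC and UGDH, with shERK5-5 in SK-N-BE(2) SCLY and TXN2, with shERK5-4 in CHLA-90 GCH1, GLRX, MSRB2 and SLC7A11, and with shERK5-5 in CHLA-90 MBOAT1 and SLC7A11. With array weights 5822 of all probes were called with shERK5-4 in CHLA-90, against 3918 as reported. The cause of these changes was not tested.

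Replicate numbers are shared by the groups, and the labels do not say whether they pair arrays. Deviations of same-numbered arrays from their group means gave correlations of -0.13 to 0.20 within SK-N-BE(2) and -0.06 to 0.20 within CHLA-90. Their mean was 0.06 in SK-N-BE(2), against -0.03 for arrays of different number, and 0.08 against -0.04 in CHLA-90. Deviations within a group cancel out by construction. The mean for arrays of different number therefore follows largely from the first and is no separate reference. The reported model took no account of replicate number. With the replicate block, 77 of 80 member values kept their call. KEAP1 (0.70) with shERK5-5 in SK-N-BE(2) and the line difference of NFE2L2 for shERK5-5 (-1.08) passed, and the hairpin difference of NQO1 in CHLA-90 (0.45) did not. Arrays of 3 replicates limit what small changes can be told from the spread, and no detection calls were used for the dim HMOX1 and AIFM2.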
